A study of Mus musculus with 2 samples.

Results

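The genes described here encode the initiation and elongation factors of protein synthesis and the proteins named after them. They were every gene whose symbol starts with Eif1 to Eif6, Eef1 or Eef2 in both deposited tables, apart from the sex-linked Eif1ax, Eif2s3x and Eif2s3y and the eIF2 kinases Eif2ak1 to Eif2ak4. This gave 67 of 52636 genes. The rule used symbols only and no measured value. Among the 67, 6 symbols are numbered pseudogene names and 1, Eif2c5, is annotated as a long noncoding RNA whose symbol is an older Argonaute-type name.

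The study sequenced RNA, labelled as from retinas, of 8-week-old C57BL/6 mice. It has 1 wild-type library (WT) and 1 library from mice in which the microRNA miR-29a was knocked out (KO). Each library was made from the pooled tissue of 3 mice, so there are no replicates, no test across mice and no p-value. All differences are between these libraries and not between genotypes, and "with WT" and "with KO" stand for the libraries so labelled. The sources used here do not say how the allele was made. The label KO could not be checked on its target, since the gene of the miR-29a precursor, Mir29a, was listed at 0 counts in both libraries.

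The tissue label was checked against marker genes. Of 13 photoreceptor markers, 12 were under 1 CPM (a count divided by its library total and scaled to the same sum) in both libraries, and Arr3, Nrl, Pde6a and Prph2 were at 0 in both. Of 13 markers of retinal interneurons and ganglion cells, 9 were under 1 CPM in both. The 7 Mueller glia markers, 4 of them under 1 CPM in each library, summed to 232 and 239 CPM, with Glul, which other cells also express, at 139 and 170 CPM. The summed level of 10 fibroblast markers was 10201 CPM in the WT-labelled library and 11599 CPM in the KO-labelled library. The 12 macrophage and microglia markers summed to 278 and 657 CPM. The 9 endothelial markers summed to 43.9 and 64.3 CPM. With most photoreceptor and neuron markers under 1 CPM and fibroblast markers high, these levels did not bear out the retina label in either library. Xist had 4288 counts in the WT-labelled library and 0 in the KO-labelled library, while the Y-linked Kdm5d had 30 and 310. With 1 library per label, a difference in sex between the pools cannot be told apart from genotype. The part that these marker and sex-linked differences had in the results below was not tested. In bulk RNA, fewer cells of a type and less RNA per cell cannot be told apart.

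Initiation begins when eIF2 brings the initiator methionyl-tRNA to the small ribosomal subunit, which eIF1, eIF1A, eIF3 and eIF5 hold in a state ready to scan. The eIF4F complex binds the mRNA cap through eIF4E, unwinds the leader through the helicase eIF4A and bridges to eIF3 through eIF4G. In elongation eEF1A delivers each aminoacyl-tRNA, eEF1B recharges eEF1A with GTP, and eEF2 moves the ribosome to the next codon. The best known control points are the recharging of eIF2 by its exchange factor eIF2B and the holding back of eIF4E by the 4E-binding proteins. The mRNAs of eEF1A, eEF2 and several eIF3 subunits belong, with those of ribosomal proteins, to a class that starts with a run of pyrimidines and is translated under control of the kinase mTOR.

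Of the 67 genes, 58 reached 50 counts in the higher library, the minimum for a comparison, as did 12382 genes in all. The other 9 had few counts. Eef1a2, the form of eEF1A that replaces Eef1a1 in mature neurons and muscle, had 28 counts in the WT-labelled library and 8 in the KO-labelled one. Eif4ebp3 had 3 and 0 counts, Eif1-ps1 had 12 and 3, and Eif3s6-ps2 had 8 and 10. Eif2c5 had 1 and 5 counts and Eif3s6-ps1 had 1 and 3. Eif4e1b, Eif1-ps3 and Eif3s6-ps4 were at 0 in both, which allows up to 3 counts, or 0.112 CPM in the WT-labelled library and 0.121 CPM in the KO-labelled one.

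Total counts were 26805902 in the WT-labelled library and 24876925 in the KO-labelled one. The 67 genes took 3.07% of the WT total and 2.84% of the KO total. Eef2 had the most counts of any gene in the WT-labelled library and ranked 4 in the KO-labelled one. Eef1a1 ranked 5 and 3. Between genes, levels are compared here as the deposited FPKM, which divides fragment counts by transcript length. On that scale the 3 highest factors in the WT-labelled library were Eef2 at 3730, Eef1a1 at 3080 and Eef1g at 841 FPKM. In the KO-labelled library the same 3 genes stood at 2492, 3582 and 513 FPKM, so Eef1a1 and not Eef2 came first.

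**Figure D1:**
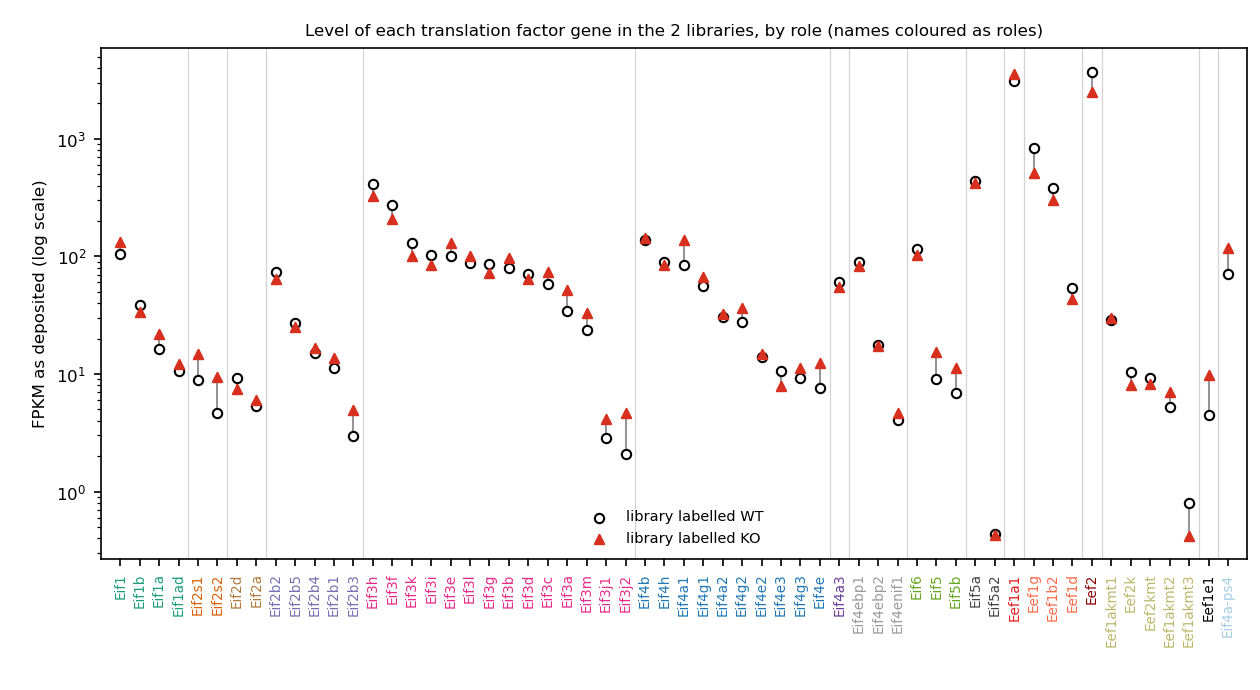
Deposited FPKM on a log scale for the 58 factor genes with 50 or more counts, ordered by role; open circles are the WT-labelled and triangles the KO-labelled library, each a single library with no error bar. Eef2 and Eef1a1 stand above all others, and their order is opposite in the 2 libraries.

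The log2 ratio, KO over WT, was computed for each gene from its CPM plus 0.5 CPM, and a gene was counted as higher or lower at 1.5-fold or at 2-fold. Folds in the text are ratios of CPM with nothing added. Their 95% intervals are exact (Clopper-Pearson) and describe the counting error of reads alone, not the spread between mice. Without molecular identifiers several reads can stem from 1 molecule, so the intervals can be too narrow even for counting error. At 2-fold, 3 of the 58 factors were higher with KO, against 4.47% of all genes, and 0 were lower, against 2.82%. At 1.5-fold, 12 were higher, against 13.3% of all genes, and 2 were lower, against 8.88%. Below 0 stood 23 of the 58, against 45% of all genes. The median log2 ratio was 0.17 for the factors and 0.06 for all genes. The counting interval of the fold lay wholly above 1 for 32 factors, wholly below 1 for 17 and held 1 for 9, which is 55.2%, 29.3% and 15.5% of the factors against 40.3%, 31.2% and 28.5% of all genes. With scaling by the median of gene ratios the shares of all genes became 10.8% higher and 11.1% lower at 1.5-fold. After a correction for transcript GC content and length, described below, they became 8.62% and 8.83%.

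**Figure D2:**
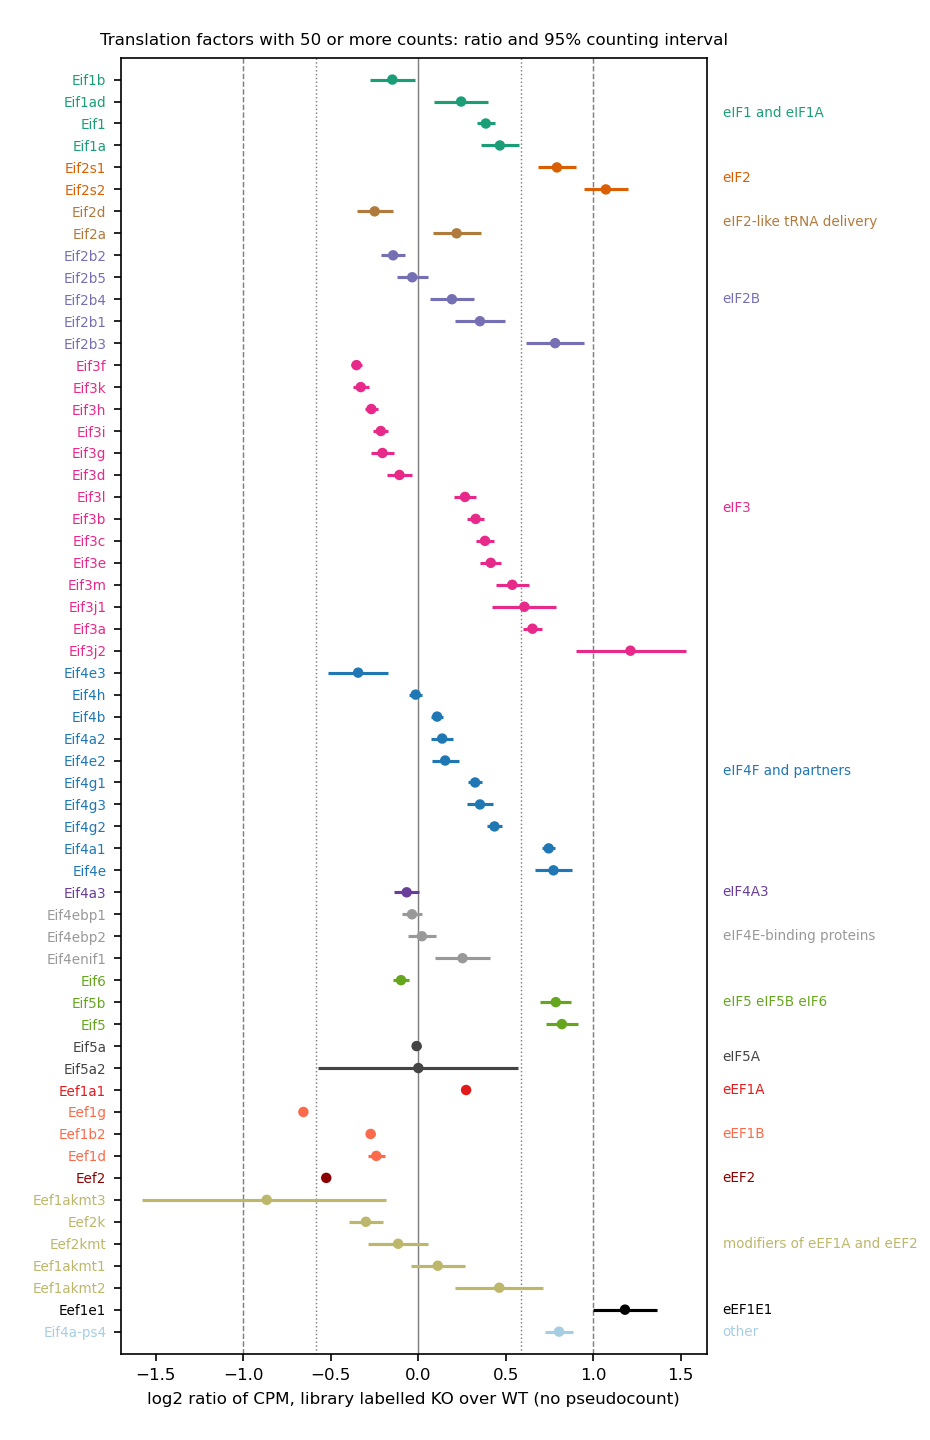
Log2 ratio of CPM, KO over WT with nothing added, for the 58 genes grouped by role; points are single ratios, bars are 95% counting intervals, and vertical lines mark 1.5-fold (dotted) and 2-fold (dashed). The eIF2 subunits, Eif5, Eif5b, Eif4e and Eif4a1 lie to the right, Eef1g and Eef2 to the left, and eIF3 subunits on both sides of 0.

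The initiation factors were higher in the KO-labelled library more often than lower. Of 40 that reached the minimum, 27 had a log2 ratio above 0 and 13 below, against 45% of all genes below 0. At 1.5-fold 10 were higher and 0 lower, against 13.3% and 8.88% of all genes. The median log2 ratio of the 40 was 0.30, against 0.06 for all genes. After the correction for GC content and length, described below, it was 0.14, against 0 for all genes, and 30 of the 40 were above 0. Of the 40, only Eif3j2 at 0.84 and Eif2s2 at 0.73 were then past 1.5-fold, both higher. Of all genes, 8.62% were then higher and 8.83% lower. The summed level of the initiation factors was 6785 CPM in the WT-labelled library and 7491 CPM in the KO-labelled one, a ratio of 1.10 (1.10 to 1.11). The log2 of that ratio was 0.14, and it was -0.0023 when FPKM values were summed instead.

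Both subunits of eIF2 in the set were higher in the KO-labelled library. Eif2s2 (chr2:154871410-154892935, with this and all other positions on GRCm38) encodes the beta subunit, which contacts eIF5 and eIF2B. It had 794 counts, or 29.6 CPM, in the WT-labelled library and 1550 counts, or 62.3 CPM, in the KO-labelled one, 2.10-fold higher (1.93 to 2.29). Eif2s1 encodes the alpha subunit, whose phosphorylation slows initiation. Its level was 41.5 CPM with WT and 71.9 CPM with KO, 1.73-fold higher (1.61 to 1.87). The gamma subunit gene Eif2s3x, left out by the rule, had 1752 and 1842 counts and a log2 ratio of 0.18.

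The genes of the exchange factor eIF2B had log2 ratios on both sides of 0 before the correction for GC content and length. Eif2b3, for the gamma subunit, had 491 counts with WT and 784 with KO, 1.72-fold higher (1.54 to 1.93). The other 4 subunit genes had log2 ratios of -0.14 for Eif2b2, -0.03 for Eif2b5, which encodes the catalytic subunit, 0.19 for Eif2b4 and 0.35 for Eif2b1. After the correction all 5 were above 0, from 0.02 for Eif2b2 and Eif2b5 to 0.54 for Eif2b3. The 5 genes together stood at a ratio of 1.04 (1.01 to 1.07) by summed CPM. Eif2b2 over Eif2b3 was 24.9 (22.7 to 27.5) by FPKM with WT and 13.1 (12.1 to 14.2) with KO. Eif2a and Eif2d, which can place a tRNA on the ribosome without eIF2, had log2 ratios of 0.22 and -0.25, and of -0.14 and -0.33 after the correction for GC content and length.

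Of the factors of scanning and start codon choice, Eif1 had 5613 counts with WT and 6809 with KO, a log2 ratio of 0.39. Eif1a stood at 0.46 and Eif1ad at 0.24. Eif1b, a close paralog of Eif1, stood at -0.15 with 1102 and 923 counts. By FPKM, Eif1 over Eif1b was 2.73 (2.56 to 2.92) with WT and 3.96 (3.69 to 4.24) with KO.

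The 14 genes of eIF3, the largest initiation factor and a scaffold on the small subunit, were split. Of them 8 were above 0 and 6 below, against 45% of all genes below 0. The 14 ran from -0.35 for Eif3f to 1.13 for Eif3j2, with a median of 0.30. Their summed CPM was nearly level, at a ratio of 0.983 (0.974 to 0.993). Eif3f had 20055 counts with WT and 14573 with KO, 1.28-fold lower (1.25 to 1.30). Eif3a, the largest subunit and a core of the complex, had 4457 and 6505 counts, 1.57-fold higher (1.51 to 1.63).

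The 2 most abundant subunits were both below 0. By FPKM, Eif3h was highest in both libraries, at 411 with WT and 328 with KO, and Eif3f next, at 274 and 206. Below 0 were Eif3f, Eif3k at -0.33, Eif3h at -0.27, Eif3i at -0.21, Eif3g at -0.20 and Eif3d at -0.11. Above 0 but under 1.5-fold were Eif3l at 0.27, Eif3b at 0.33, Eif3c at 0.38, Eif3e at 0.41 and Eif3m at 0.53, the last being the nearest gene under the 1.5-fold limit.

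The 8 subunits that form the structural octamer, a, c, e, f, h, k, l and m, were split as well, with 5 above 0 and 3 below. Their summed CPM stood at a ratio of 0.977 (0.966 to 0.988). The f, h and k subunits were the 3 below 0. The remaining 6 genes, for subunits b, d, g, i and the loosely bound j, had 3 above and 3 below.

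Subunit j has 2 genes in the mouse. Eif3j2 had 125 counts with WT and 269 with KO, 2.32-fold higher (1.87 to 2.89). Eif3j1 had 421 and 595 counts, 1.52-fold higher (1.34 to 1.73). Both were the lowest of eIF3 by FPKM, at 2.07 and 2.85 with WT and 4.62 and 4.17 with KO for Eif3j2 and Eif3j1. Eif3j1 over Eif3j2 was 1.37 (1.12 to 1.69) with WT and 0.903 (0.780 to 1.05) with KO. The 2 genes are near copies, and the authors' counting could split reads between them.

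Of the cap-binding complex eIF4F and its partners, 10 of 11 genes reached the minimum. Of these, 8 were above 0 and 2 below, against 45% of all genes below 0. At 1.5-fold 2 were higher, against 13.3% of all genes. Eif4e, the cap-binding protein, had 1153 counts with WT and 1829 with KO, 1.71-fold higher (1.59 to 1.84). Eif4a1, the helicase, had 9299 and 14474 counts, 1.68-fold higher (1.63 to 1.72). The scaffold genes stood at 0.32 for Eif4g1, 0.35 for Eif4g3 and 0.44 for Eif4g2, whose product lacks the eIF4E-binding region. The helicase cofactors Eif4b and Eif4h stood at 0.11 and -0.01.

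Paralogs in this group differed. Eif4a2 had 4109 counts with WT and 4193 with KO and a log2 ratio of 0.14. Eif4a1 over Eif4a2 was therefore 2.79 (2.69 to 2.89) by FPKM with WT and 4.25 (4.11 to 4.40) with KO. Eif4e3 had the lowest log2 ratio of the group, at -0.34, and Eif4e2, whose product binds caps without recruiting eIF4G, stood at 0.15. Eif4e2 over Eif4e was 1.83 (1.71 to 1.97) with WT and 1.19 (1.12 to 1.27) with KO. Eif4a3, a helicase of the exon junction complex rather than of initiation, stood at -0.07.

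Eif4a-ps4 (chr1:60703932-60705149) is a pseudogene of Eif4a1. It had 2163 counts with WT and 3508 with KO, 1.75-fold higher (1.66 to 1.84), next to 1.68-fold for Eif4a1. It aligned to Eif4a1 at 90% identity or more over at least 300 bases, so reads of Eif4a1 and of the pseudogene cannot be told apart here.

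The repressors of eIF4E differed less between the libraries than eIF4E itself. Eif4ebp1 had 4947 counts with WT and 4479 with KO, a log2 ratio of -0.04, and Eif4ebp2 stood at 0.02. Eif4enif1, which carries eIF4E into the nucleus and to P-bodies, stood at 0.25. Eif4ebp1 over Eif4e was 11.7 (11.0 to 12.5) by FPKM with WT and 6.70 (6.34 to 7.08) with KO. The counting intervals of that ratio did not overlap, which describes counting error alone. The interval of the fold held 1 for 28.5% of all genes. After the correction for GC content and length Eif4e came to 0.42 and Eif4ebp1 to -0.20.

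Of the late factors, Eif5 and Eif5b were higher in the KO-labelled library. Eif5, which makes eIF2 hydrolyse its GTP at the start codon, had 1561 counts with WT and 2560 with KO, 1.77-fold higher (1.66 to 1.88). Eif5b, the GTPase that joins the subunits, had 1686 and 2699 counts, 1.72-fold higher (1.62 to 1.83). Eif6, which keeps the large subunit free, had 7848 and 6804 counts and a log2 ratio of -0.10. Because Eif6 had more counts than the other two together, the summed CPM of the 3 stood at 1.17 (1.14 to 1.20), while their summed FPKM stood at a log2 ratio of -0.01.

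eIF5A, which carries the unusual amino acid hypusine and helps ribosomes through stalling stretches, differed little. Eif5a had 26534 counts with WT and 24468 with KO, a log2 ratio of -0.01 and a fold of 0.994 (0.976 to 1.01). Eif5a2 had 56 and 52 counts and a log2 ratio of 0.00. By FPKM Eif5a was 1002 times Eif5a2 with WT (771 to 1327) and 995 times with KO (759 to 1333).

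The elongation factors were unlike the initiation factors. The summed level of eEF1A, eEF1B and eEF2 was 22256 CPM in the WT-labelled library and 19234 CPM in the KO-labelled one, 1.16-fold lower (1.15 to 1.16). Of 5 genes past the minimum, 4 were below 0, against 45% of all genes. Without Eef1a1 the sum was 1.43-fold lower (1.43 to 1.44).

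Eef2 (chr10:81176631-81182498) had 314204 counts, or 11721 CPM, with WT and 202525 counts, or 8141 CPM, with KO, 1.44-fold lower (1.43 to 1.45), which is just short of the 1.5-fold limit and nearest to it among the lower factors. With median-of-ratios scaling its log2 ratio was -0.59, past that limit. Eef1a1 (chr9:78478449-78489151) had 194591 counts, or 7259 CPM, and 218324 counts, or 8776 CPM, 1.21-fold higher (1.20 to 1.22). Eef2 over Eef1a1 was 1.21 (1.20 to 1.22) by FPKM with WT and 0.696 (0.692 to 0.700) with KO. These 2 factors act in turn in each cycle of elongation.

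The subunits of eEF1B were all lower. Eef1g (chr19:8967041-8978479), the gamma subunit, had 55411 counts, or 2067 CPM, with WT and 32624 counts, or 1311 CPM, with KO, 1.58-fold lower (1.55 to 1.60). Eef1b2, an exchange subunit, had 24334 and 18699 counts, 1.21-fold lower (1.18 to 1.23). Eef1d, the delta subunit, had 8029 and 6311 counts, 1.18-fold lower (1.14 to 1.22). The sum of the 3 was 3274 and 2317 CPM, 1.41-fold lower (1.40 to 1.43). Eef1g over Eef1b2 was 2.22 (2.18 to 2.25) by FPKM with WT and 1.70 (1.67 to 1.73) with KO, and Eef1a1 over Eef1g was 3.66 (3.63 to 3.70) and 6.98 (6.90 to 7.06).

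Eef1e1 (chr13:38644207-38659058), called eEF1E1 but known as a scaffold of the multi-tRNA synthetase complex, had the highest log2 ratio with 0.5 CPM added, while Eif3j2 had the larger fold. It had 368 counts, or 13.7 CPM, with WT and 775 counts, or 31.2 CPM, with KO, 2.27-fold higher (2.00 to 2.58), a log2 ratio of 1.15.

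Enzymes that modify the elongation factors had log2 ratios on both sides of 0. Eef1akmt3, a lysine methyltransferase of eEF1A, had 55 and 28 counts, 1.82-fold lower (1.14 to 2.98), and lies across Mettl1 on the other strand. Eef2k, the kinase that inhibits eEF2, had 1941 and 1464 counts and a log2 ratio of -0.30. Eef1akmt2 stood at 0.44, Eef1akmt1 at 0.11 and Eef2kmt at -0.11. Eef2 over Eef2k was 361 (345 to 377) by FPKM with WT and 308 (293 to 325) with KO.

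Other genes of translation were taken from 7 lists chosen for their place in the pathway. Of 9 termination and recycling genes, 6 were higher at 1.5-fold and 0 lower, with a median of 0.71, beside the 13.3% and 8.88% of all genes given above. They were Abce1, the ribosome-splitting ATPase, at 0.96, Hbs1l at 0.88, Etf1, the release factor eRF1, at 0.87, Denr at 0.78, Mcts1 at 0.71 and Gspt1, the release factor eRF3, at 0.66. After the correction for GC content and length, described below, 3 stayed past 1.5-fold, Abce1 at 0.60, Hbs1l at 0.72 and Denr at 0.72, and the median was 0.45. The synthetase list held 19 cytosolic tRNA synthetase genes and the synthetase scaffold genes Aimp1 and Aimp2, 21 in all. Of the 21, 4 were higher and 0 lower, beside 13.3% and 8.88% of all genes, with a median of 0.38. These were Farsb at 1.25, Rars at 0.82, Nars at 0.73 and Lars at 0.64. After correction 2 of the 21 were past 1.5-fold, Farsb at 1.08 and Aars at 0.71, and the other 3 came to 0.57, 0.56 and 0.44. With the same correction 8.62% of all genes were higher at 1.5-fold and 8.83% lower.

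The lists of control genes had smaller counts. They stand beside 13.3% of all genes higher at 1.5-fold and 8.88% lower. Of 15 genes of the mTORC1 and MNK pathways, 1 was higher, Rheb at 0.59, with a median of 0.03. Of 6 eIF2 kinases and phosphatase subunits, 0 were higher and 1 was lower, Ppp1r15a at -0.63, which encodes the inducible subunit of the eIF2 phosphatase. Of 8 hypusine and diphthamide enzymes, which modify eIF5A and eEF2, 1 was higher, Dph5 at 0.75. Of 9 mitochondrial translation factors, 1 was lower, Mtif3 at -0.61. None of 5 poly(A)-binding proteins and partners passed 1.5-fold. After correction Rheb at 0.31, Ppp1r15a at -0.41 and Dph5 at 0.42 were no longer past 1.5-fold, Mtif3 stayed at -0.61, and Dph7, another diphthamide enzyme, came to -0.59. The 79 cytosolic ribosomal protein genes, which with Eef1a1 and Eef2 belong to the pyrimidine-start class, had a median of -0.30. Of the 79, 57 were below 0, against 45% of all genes, and the summed CPM of the 79 was 1.30-fold lower (1.29 to 1.30).

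The factors' log2 ratios followed the base composition of their transcripts. Spearman's rho of the log2 ratio with the GC content of the longest annotated transcript was -0.57 over the 58 factors, -0.68 over the 14 eIF3 genes and -0.44 over 12371 genes. All values come from the same 2 libraries. Of the 29 factors at or under the median GC content of 49.8%, 24 were above 0, 12 were higher at 1.5-fold and 0 lower, with a median of 0.44. Of all genes in that range of GC content 73.5% were above 0, 19.6% higher and 4.42% lower at 1.5-fold, with a median of 0.25. Of the 29 above it, 11 were above 0, 0 were higher at 1.5-fold and 2 lower, with a median of -0.07. Of all genes in that range 37% were above 0, 7.16% higher and 13.2% lower, with a median of -0.13. The genes higher at 1.5-fold thus all lay at or under the median GC content. Eif2s2 has 38.7%, Eif4e 40.5% and Eif5 41.7%, while Eef2 has 57.0%.

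**Figure D3:**
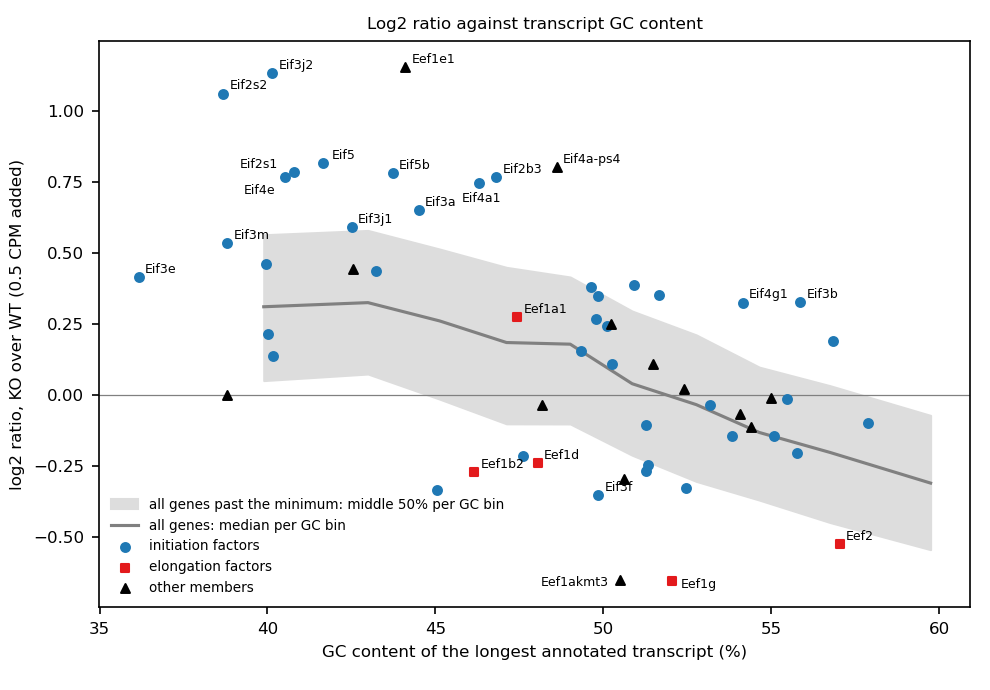
Log2 ratio, KO over WT after adding 0.5 CPM, against GC content of the longest annotated transcript in percent, for the 58 genes by class; the grey line and band are the median and middle 50% of all genes in 10 bins of GC content. Most initiation factors under 45% GC lie above the line, and Eef1g, Eef1b2 and Eif3f lie below the band.

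The correction took from each log2 ratio the median of all genes in the same bin of GC content. From what was left it took the median of the same bin of transcript length. After it, 4 of the 58 factors stayed higher at 1.5-fold, against 8.62% of all genes. They were Eef1e1 at 0.91, Eif3j2 at 0.84, Eif2s2 at 0.73 and Eif4a-ps4 at 0.67. The 2 lower ones remained so, against 8.83% of all genes, with Eef1g at -0.61 and Eef1akmt3 at -0.67. At 2-fold 0 factors were higher and 0 lower, against 3.59% and 2.9% of all genes. All 14 genes past 1.5-fold before correction kept their direction, which says little because they were picked for large ratios. Of the 58 factors, 13 took the other direction, none of them with a log2 ratio over 0.22 in size before correction. Eif2a, from 0.22 to -0.14, was the largest of them, and Eif3g, from -0.20 to 0.04, was the only eIF3 subunit among them. On protein-coding transcripts 14 took the other direction, with Eif3d as a further eIF3 subunit.

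Corrected values changed the elongation factors less evenly. Eef2 came to -0.34, Eef1b2 to -0.52 and Eef1a1 to 0.12. Eef1d came to -0.41, and to -0.06 when its longest protein-coding transcript was used. Within eIF3, Eif3f came to -0.51 and Eif3b to 0.51, so the subunits still stood on both sides of 0. After correction Spearman's rho with GC content was -0.21 over the 58 factors, -0.33 over the 14 eIF3 genes and 0.0084 over all genes. The corrected ratios of the factors were thus not free of a trend with GC content. The part that GC content or RNA quality had in the ratios was not tested.

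**Figure D4:**
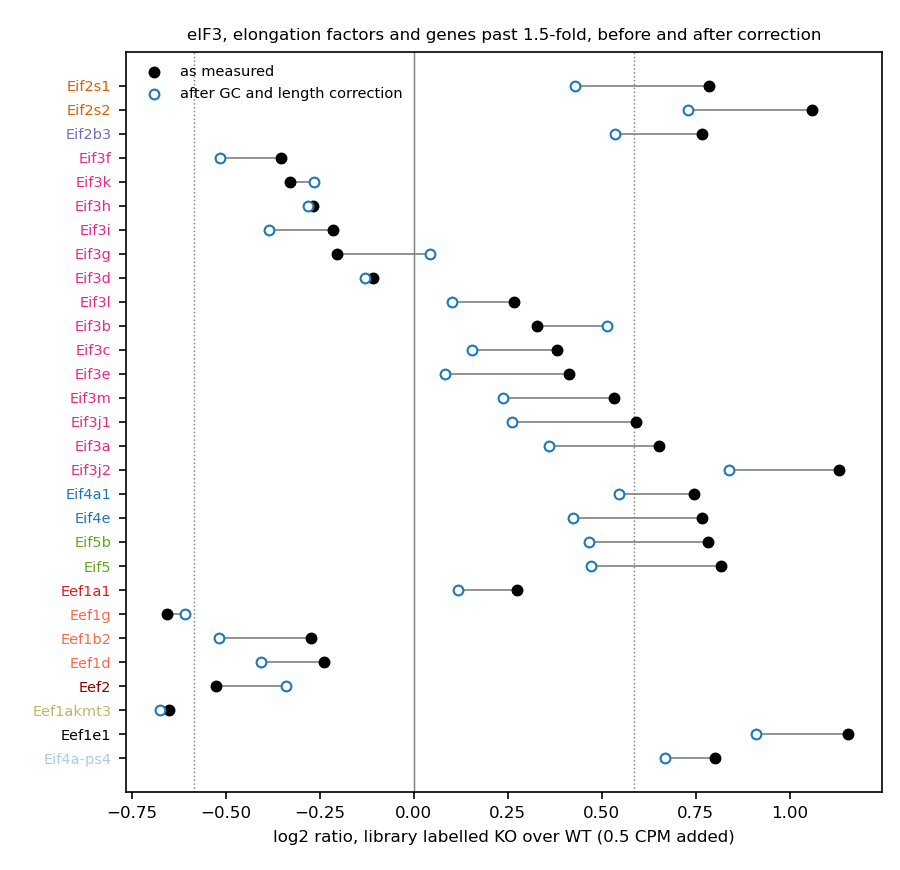
Log2 ratio, KO over WT, before (filled) and after (open) subtraction of the median of genes with like GC content and length, for the genes of eIF3, the elongation factors and all genes past 1.5-fold; dotted lines mark 1.5-fold. Eef1e1, Eif3j2, Eif2s2 and Eif4a-ps4 stay to the right of 0.59 and Eef1g and Eef1akmt3 to the left of -0.59.

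Because miR-29a was knocked out, the annotated 3' UTRs of the factors were searched for the site of its seed, bases 2 to 8 of the mature microRNA. The mature sequence from RefSeq (GRCm38.p6, chr6:31062673-31062694, minus strand) has the seed in capitals, and the site is its reverse complement, TGGTGCT, on the transcript strand only, shown in capitals in the windows of the 4 factors with the site that were higher at 1.5-fold and of the 2 with the lowest log2 ratios, neither of which passed 1.5-fold.
mmu-miR-29a-3p: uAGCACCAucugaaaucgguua
Eif4e: tgtttttatTGGTGCTctaaatcac
Eif5b: tcttccctcTGGTGCTgaggtgcca
Eif2b3: ctgcctcccTGGTGCTgggattaag
Eif3j1: gagaaaagcTGGTGCTgggacatta
Eef1d: cccctatgcTGGTGCTtgggttccc
Eef2k: aggctacagTGGTGCTgttccttga

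The site windows come from GENCODE M21 transcripts (GRCm38). The heptamers lie at chr3:138558085-138558091 in Eif4e, chr1:38055181-38055187 in Eif5b, chr4:117072651-117072657 in Eif2b3 and chr2:122054794-122054800 in Eif3j1. Those of Eef1d and Eef2k lie at chr15:75894676-75894682 and chr7:120906368-120906374. The other 3 factors with the heptamer were Eif4a3 at -0.07, Eif4b at 0.11 and Eif4h at -0.01. None of the 9 sites is followed by an A, the base that makes a stronger class of site.

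The heptamer was as common in the factors as in other genes. It was in the longest 3' UTR of 9 of 57 factors searched, 15.8%, and of 1860 of 11585 genes, 16.1%. Of the 9, 5 were above 0, and their median log2 ratio was 0.11, against 0.17 for factors without it. After the correction for GC content and length the order was the other way, at 0.13 with the heptamer and 0.11 without. Over all genes the medians were 0.14 with and 0.05 without, and 0.046 and -0.0041 after the correction. Factors with the heptamer had a median 3' UTR of 2337 bases, and those without it 687. Over all genes these lengths were 2473 and 1048 bases.

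The pyrimidine run was searched at the annotated start sites in RefSeq promoters, as a C followed by 4 or more of C or T on the transcript strand. Of 45 factors matched, 2 had it at the start, 4.44%, against 3.01% of 27025 genes. One of the 2 was the noncoding Eif2c5, which is no translation factor, and the other was Eif3f. Eif3f, lower with KO, had it at the start at chr7:108934403-108934429, and Eef1a1 had it 1 base before, at chr9:78481710-78481736 on the minus strand, with the run in capitals.
Eif3f: gttctaggctctCTCTCTTTCTCggca
Eef1a1: ggctccgccctCTTCCCgagggtgggg

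Within 5 bases of the start 10 factors held the run, 22.2%, against 21.2% of all genes. The annotated start need not be the one used in these cells, and a match is a description of the letters only.

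Reads of near copies could be split or shared in the counts. By alignment at 90% identity or more over 300 bases, 15 annotated pseudogenes matched Eef1a1, with 1209 counts with WT and 1038 with KO in all. For Eef1g, 5 pseudogenes had 2099 and 1394 counts, and for Eef2, 3 had 1811 and 1365. The pseudogenes of Eef1g and of Eef2 were lower with KO, as their parents were, while those of Eef1a1, at 45.1 CPM with WT and 41.7 CPM with KO, did not share the higher level of Eef1a1. For 11 of the 67 genes an exon also overlapped one of another gene with 50 or more counts. Among them were, on opposite strands, Eef1b2 with Ndufs1, Eif5b with Rev1 and Eif3j1 with Spg11. On the same strand Eef1d overlapped Naprt, which had 1888 counts with WT and 1044 with KO. The library kit does not mark strand, so reads from such overlaps cannot be told apart.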

How the data were processed

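The deposited tables gave, per the file headers, a read count and an FPKM value (fragments scaled by transcript length and library size) per gene for each library. Reads were aligned with HISAT2 to mm10 (GRCm38), per the submitters' processing notes. Ribosomal RNA was removed and libraries made with a kit that does not mark strand, per the labels' protocols. For the read counter, annotation release, strand setting and FPKM scaling, nothing is stated in the labels or headers (not given in the sources used here). Counts entered as the authors deposited them, and FPKM served to compare levels between genes and as an alternative. For 88.3% of 9446 genes the length implied by count and FPKM matched the union of GENCODE M21 exons within 1%, after a common factor. The 4 genes whose count to FPKM ratio differed between the tables by over 1% were left out.

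CPM was count over total, the log2 ratio used 0.5 CPM added, and a gene entered with 50 counts in the higher library. All 67 identifiers were in GENCODE M21, the source of positions, transcripts and 3' UTRs. Members and lists were chosen with earlier results of these data known. Named genes were those past 1.5-fold, the 3 highest by FPKM, the extremes of each complex, paralog pairs, genes with the heptamer, those nearest the 1.5-fold limit and pathway genes past it; others were chosen after their values were seen. Alternatives, 15 in all, covered scaling (TMM of edgeR 4.0.16 in R 4.3.3, median of ratios, trimmed total), pseudocount (0.1 and 2 CPM), minimum (200 counts or none), FPKM, GC content and length, and pseudogenes. Python 3.11.15, pandas 2.3.3, scipy 1.17.1, matplotlib 3.10.9 and blastn 2.17.0 were used, and the scripts were tested on simulated data. With 1 library per group no difference has a replicate check.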

Additional observations from a re-analysis of the deposited data

How the results depend on the processing

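No paired analysis was possible because each group holds 1 library. The log2 ratio of the summed initiation factors, 0.14, was 0.11 with TMM factors, 0.077 with median-of-ratios factors, 0.083 without members that have a named pseudogene copy, 0.079 without those with an annotated copy, and -0.0023 from FPKM, so its direction is not settled. That of the summed elongation factors, -0.21, was -0.24, -0.28, -0.27 without annotated copies and -0.22 from FPKM. The count lower at 1.5-fold was 2, against 8.88% of all genes. It was 1 with 2 CPM added, 1 with a minimum of 200 counts and 1 from FPKM, against 6.61%, 7.39% and 8.4%. Without annotated copies it was 1, against 8.88%. It was 4 with no minimum, against 7.69%, and 3 with median-of-ratios factors, against 11.1%. With the latter Eef2 reached -0.59. The count higher at 2-fold, 3, was 0 with either GC and length correction and 1 from FPKM, against 3.59%, 3.52% and 2.6% of all genes. The count higher at 1.5-fold, 12, was 4 with either correction, against 8.62% and 8.48% of all genes. Without annotated copies it was 6 of the 35 members left, against 13.3% of all genes. Of the 35, 14 stood below 0, against 45% of all genes. Pyrimidine runs at the start, 2, were 10 within 5 bases. The alternatives without annotated copies, with protein-coding genes only and with GC correction on protein-coding transcripts were chosen after seeing the data. The 14 genes past 1.5-fold kept their direction under every alternative that tested them. They were picked for large ratios, and most alternatives move a ratio too little to change such a sign, so this is no check. Of the 14, 6 stayed past 1.5-fold with either GC and length correction, 12 from FPKM and 13 with TMM or median of ratios. Of all 58 factors, only Eif4ebp2 and Eif5a2 took the other direction with TMM, median-of-ratios or FPKM scaling. The summed eIF2B genes went from 0.06 to -0.01 with median of ratios and -0.06 from FPKM, and the 4E-binding proteins from 0.01 to -0.06 and -0.07. Genes under 100 counts, such as Eef1akmt3 and Eif5a2, are limited by depth.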
